A study of Mus musculus with 12 samples.

Results

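The 10 genes Ddx58, Ifih1, Dhx58, Mavs, Irf3, Irf7, Irf2, Eif2ak2, Zbp1 and Nmi take part in the detection of double-stranded or otherwise unusual RNA and in the interferon response. They were taken as a list of gene symbols and matched to the gene names of 4 tables of exonic and intronic reads, where all 10 were found among 18412 genes. The libraries come from mouse embryonic stem cells (ESCs), the self-renewing cells of the early embryo in culture. A Dicer1-/- line (3 libraries) was set against the wild-type line TFC (3 libraries), and a Dgcr8-/- line (3 libraries) against the wild-type line V6.5 (3 libraries). Dicer cuts microRNA hairpins in the cytoplasm and can also cut long double-stranded RNA, and Dgcr8 is the partner of Drosha in the nuclear step that releases those hairpins. All cells of the 4 groups grew on gelatin in serum with leukemia inhibitory factor, with no feeder layer or infection named in the labels, and polyadenylated RNA was sequenced with its strand kept by the UTP method. Each group is 1 line, and the labels do not say how the alleles were made. What the lost factor does and what else separates a knockout line from its wild-type line cannot be told apart. The labels name no separate cultures behind the 3 libraries, so a p-value below tells of the spread over these libraries alone, and that spread may be technical.

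RNA sensing starts with the RIG-I-like receptors, helicases that bind double-stranded RNA in the cytoplasm. They signal through Mavs on the mitochondrial surface to kinases that activate Irf3 and Irf7, which switch on interferon genes, and secreted interferon then raises a broad set of interferon-stimulated genes through Jak kinases and Stat proteins. Mouse ESCs are known to make little interferon when exposed to double-stranded RNA. In microRNA-deficient mouse ESCs, Mavs has been described as a gene held down by miR-673-5p in the wild type. Most of the 10 genes are themselves interferon-stimulated.

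Values are normalised reads per library, the authors' reads divided by a size factor of the library, solved from the deposited group means (see the processing notes for how). Libraries of a group are called A, B and C, and carry no replicate number. Recovered depth was 5869714 to 30725712 exonic reads and 559057 to 5597604 intronic reads per library, lowest in V6.5 library A in both. Library A was named in each group as the library that correlates least with the others over exonic genes. There r was 0.732 to 0.869 between A and the others and 0.807 to 0.947 between B and C. In TFC the choice was close, with r of 0.732 for A with B, 0.805 for A with C and 0.807 for B with C. A term for library A, used below, thus takes out a split picked from these same values and is not an independent check. Of 10 stem cell markers, all were detected in every group. The 8 of them with library values in all 4 groups (Sox2 and Dppa5a were not solved in all) summed to 83731 to 108660 reads in the Dicer knockout, against 64828 to 98320 in TFC, and to 54411 to 84602 in the Dgcr8 knockout, against 23239 to 63844 in V6.5. V6.5 libraries B and C stood apart: they had the lowest stem cell sums (23239 and 25933 reads) and the highest sums of 15 fibroblast markers (15128 and 10655 reads, with 6254 in V6.5 A and 713.9 to 1730 in the Dgcr8 knockout). V6.5 A too was above every knockout library in the fibroblast sum. Of 13 fibroblast markers tested, limma called 4 lower in the Dgcr8 knockout (Acta2, Col1a1, Col1a2 and Tagln), where 1.34% of all genes were called in either direction. Their median log2 fold change was -3.22, against -0.08 over all genes. Sums of 10 trophectoderm markers were 1457 to 2746 reads in the Dgcr8 knockout and 10904 to 14606 in V6.5, high in all 3 V6.5 libraries (12749 in A). Of 9 tested, Cdx2, Krt8 and Krt18 were called lower in the Dgcr8 knockout (limma adjusted p = 0.04997, 0.0338 and 0.0264). Of all 12727 genes tested there, 71 were called lower. The trophectoderm and fibroblast markers move with the whole Dgcr8 pair, and their part in the Dgcr8 changes given here was not tested. In the Dicer pair the trophectoderm sum was 3867 to 5803 reads in the knockout and 1946 to 5906 in TFC, and the fibroblast sum was 663.3 to 833.9 reads in the knockout and 735.0 to 1302 in TFC. Tfap2c was the largest part of that trophectoderm sum in every library. Of 7 trophectoderm markers tested there, 6 were higher in the Dicer knockout and limma called 0 (median log2 fold change 1.90, against -0.01 over all genes). With p unadjusted 4 passed 0.05, against 14.5% of all genes. Krt8, Krt7 and Gata3 were higher without overlap, as were 11.7% of all genes. The part of these markers in the Dicer changes was not tested. TFC library C stood apart by 10 immune cell markers, which summed to 7752 reads there, 815.3 and 367.7 in TFC A and B, and 1120 to 1342 in the Dicer knockout. Adgre1 (1122 reads) and Lyz2 (4013 reads), both macrophage genes, were at 0 in TFC A and B. In bulk RNA, fewer cells with a transcript and less transcript per cell cannot be told apart.

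The sequences shown here are the stem cell microRNA seeds and the interferon-type motifs that the 10 genes carry, since Dicer and Dgcr8 make microRNAs and interferon acts through such motifs. The main ESC microRNAs of the miR-290 and miR-302 clusters share 1 seed (bases 2 to 8, in capitals; RefSeq, GRCm38.p6), and miR-673-5p has another:
mmu-miR-291a-3p: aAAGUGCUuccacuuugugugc
mmu-miR-294-3p: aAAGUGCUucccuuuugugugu
mmu-miR-302b-3p: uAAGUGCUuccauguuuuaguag
mmu-miR-673-5p: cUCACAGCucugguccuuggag

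A 7-base match to the AAGUGCU seed, AGCACTT, stood in the longest annotated 3' UTR (GENCODE vM21) of 2 of the 10 genes, Irf2 and Eif2ak2, against 15.1% of 17864 genes with such a UTR. The matches are in capitals in the 30 bases around them:
Irf2 (bases 442 to 448 of the UTR): ccttatcttgaAGCACTTacaataggcctt
Eif2ak2 (bases 2369 to 2375 of the UTR): ctgcttctcaaAGCACTTtggacctttgca
The match to miR-673-5p, GCTGTGA, stood in 0 of the 10 UTRs, that of Mavs included, against 15.3% of all genes. That says only that these letters are not in this window.

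The core of the interferon-stimulated response element, GAAA and GAAA with any pair of bases between them, on either strand, stood in the promoter window (250 bases before to 50 after the start, RefSeq) of 4 of the 8 genes with an entry, against 3.44% of 32851 windows. This element is bound by Irf proteins and by Stat complexes that hold Irf9. The core is in capitals, read along the gene's strand, and in Ddx58 it lies on the opposite strand:
Ifih1 (chr2:62646206-62646233, minus strand): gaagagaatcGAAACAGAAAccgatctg
Ddx58 (chr4:40239804-40239833, minus strand): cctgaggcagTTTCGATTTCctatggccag
Irf2 (chr8:46739495-46739523, plus strand): tggggaagtGAAAATGAAAttgacttttc
Eif2ak2 (chr17:78882535-78882564, minus strand): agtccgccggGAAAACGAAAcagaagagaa
Coordinates are of GRCm38.p6. The cores of Ifih1, Ddx58 and Eif2ak2 begin 32, 2 and 18 bases after the annotated start, and that of Irf2 begins at position -241. The Stat-type core TTCNNNGAA, which reads the same on both strands, stood in 2 of the 8 windows (Irf2 and Eif2ak2), against 8.30% of all. A longer element with 3 such GAAA repeats stood in 0 of the 8, against 0.116%. These matches are descriptions of sequence, not measured binding.

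Of the 10 genes, Nmi rose in the Dicer knockout and Zbp1 in the Dgcr8 knockout, both just inside the threshold, and no other member was called in exons. Tests were made with limma on log2(value + 1), over all genes with a mean of at least 10 reads in a table, and a gene counts as called at a Benjamini-Hochberg adjusted p under 0.05. In Dicer exons all 10 genes were tested and 1 was called, higher, where 1.25% of 13156 genes were called in either direction and 1.02% higher. In Dgcr8 exons 9 were tested and 1 was called, higher, where 1.34% of 12727 genes were called and 0.786% higher. With p unadjusted, 3 members passed 0.05 in Dicer exons (14.5% of all genes) and 1 in Dgcr8 exons (16.3%), and limma-voom on the recovered reads called 0 in each. The groups did not overlap in 3 members in Dicer exons (Irf2, Zbp1 and Nmi, all higher in the knockout) and in 2 in Dgcr8 exons (Irf2 and Zbp1, both higher). Of all genes, 11.7% in Dicer exons and 10.6% in Dgcr8 exons had knockout values wholly above the wild type. The median log2 fold change of the members tested was 0.28 in Dicer exons and 0.31 in Dgcr8 exons, against -0.01 and -0.08 over all genes tested.

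**Figure D1:**
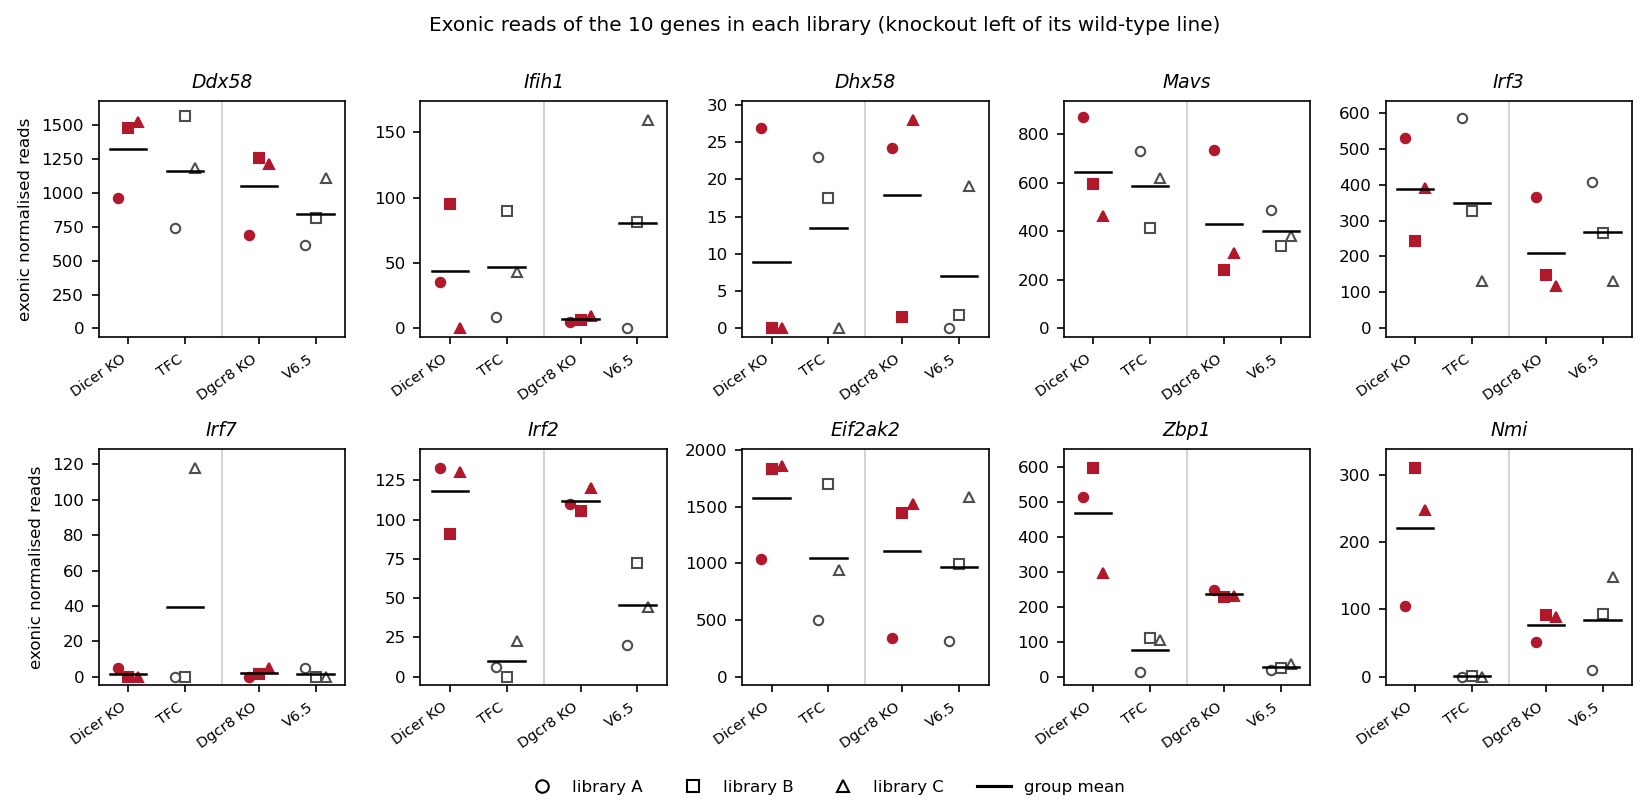
Exonic normalised reads (y axis, linear) of the 10 genes in each library, with Dicer KO left of TFC and Dgcr8 KO left of V6.5; symbols mark libraries A, B and C and black lines the group means. Zbp1 stands at 228.4 to 597.5 reads in the knockout libraries and at 12.3 to 110.1 in the wild type, and Nmi has 1 read in all of TFC. The 2 pairs were scaled separately and levels should not be compared across the grey line.

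Per kilobase of exon, the same pair of genes had the highest group means in all 4 groups. Eif2ak2 was highest (364.3 reads per kilobase in the Dicer knockout, 241.3 in TFC, 255.5 in the Dgcr8 knockout against 222.9 in V6.5) and Ddx58 came next (267.3 and 235.2, and 212.6 and 171.0, in the same groups). Within libraries, Eif2ak2 stood above Ddx58 in every Dicer knockout library. Ddx58 was the higher in libraries A and C of TFC, and in library A of the Dgcr8 knockout and of V6.5. Their order thus held in every library in the Dicer knockout alone. In library A of each group, Mavs and Irf3 both stood above this pair per kilobase, so the ranking of the means does not hold there. Irf7, Dhx58 and Ifih1 stood at 7.92 or fewer reads per kilobase in both knockouts. In TFC the lowest was Nmi (0.305 reads per kilobase), which stood mid-order in the other 3 groups (161.4 in the Dicer knockout, 56.2 in the Dgcr8 knockout against 61.1 in V6.5).

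Of the receptors, Ddx58 (RIG-I, which binds RNA ends with a 5' triphosphate; chromosome 4, 40203773 to 40239828, minus strand, GRCm38) was well expressed and did not pass the test in either pair. It had 960.4, 1479 and 1524 exonic reads in Dicer knockout libraries A, B and C, against 737.7, 1566 and 1184 in TFC (log2 fold change 0.22, SE 0.35; limma adjusted p = 0.815). In the Dgcr8 pair it had 688.8, 1252 and 1211 reads in the knockout, against 611.9, 817.4 and 1106 in V6.5 (0.31, SE 0.36; limma adjusted p = 0.774). Library A was the lowest in each of the 4 groups, and the groups overlapped in both pairs.

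Ifih1 (MDA5, which binds long double-stranded RNA; chromosome 2, 62595798 to 62646255, minus strand) was low and uneven. It had 35.8, 95.4 and 0 reads in the Dicer knockout, against 8.56, 90.0 and 43.1 in TFC (limma adjusted p = 0.831). Dgcr8 knockout cells had 5.01, 6.21 and 9.59 reads, against 0, 81.6 and 159.4 in V6.5. The level in V6.5 came from libraries B and C, which also had the highest fibroblast marker sums, and the part of such cells was not tested. The log2 fold change in the Dgcr8 pair was -1.62 (SE 1.89; limma adjusted p = 0.768). Without V6.5 B and C it was 2.95 (limma adjusted p = 0.502), in a fit that takes the lone V6.5 library to vary like the knockout libraries.

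Dhx58 (LGP2, a helicase that lacks the signalling domain of the other receptors; chromosome 11, 100694884 to 100704271, minus strand) was near the floor. It had 26.8, 0 and 0 reads in the Dicer knockout against 23.0, 17.5 and 0 in TFC, and 24.2, 1.55 and 28.0 in the Dgcr8 knockout against 0, 1.81 and 19.1 in V6.5. These values overlap in both pairs (limma adjusted p = 0.83 and 0.705). Dhx58 shares 141 exonic bases with the antisense gene Dhx58os, and the sources used here do not say whether the authors' counting used strand.

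Mavs (the adaptor of both signalling receptors; chromosome 2, 131234063 to 131248025, plus strand) did not differ in exonic reads beyond the spread of libraries in either knockout. It had 871.6, 594.1 and 464.8 reads in the Dicer knockout, against 730.7, 412.7 and 618.4 in TFC. This gave a log2 fold change of 0.12 with a 95% interval of -0.75 to 0.996 (limma adjusted p = 0.921; 0.685 to 0.931 over the alternatives). In the Dgcr8 knockout it had 737.2, 240.8 and 312.6 reads, against 487.5, 339.3 and 379.3 in V6.5. Here the log2 fold change was -0.06, with an interval of -1.17 to 1.05 (limma adjusted p = 0.98), and limma-voom gave 0.08. Library A was the highest in each of the 4 groups. The intervals hold changes of up to 0.996 and 1.05 on the log2 scale.

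Intronic reads of Mavs come mostly from unspliced RNA. They were 87.9, 44.7 and 45.2 in the Dgcr8 knockout, all above the 29.6, 13.9 and 17.5 of V6.5 (log2 fold change 1.49, SE 0.74; limma adjusted p = 0.385). The exonic change minus the intronic change was -1.59 (SE 0.38; unadjusted p = 0.00495, limma adjusted p = 0.797), so it did not pass over all genes tested. In the Dicer pair the intronic reads were 82.4, 53.2 and 152.4 in the knockout against 51.3, 106.8 and 0 in TFC, which overlap. The genes with the pattern most like that of Mavs over the 12 exonic libraries, centred within each pair, were Tysnd1 (Pearson r = 0.945), Tesc (0.934) and Scand1 (0.913), of 12311 genes. These libraries share the split between A and the others, which such a correlation also reads.

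Of the interferon regulatory factors, Irf3 (the factor that starts interferon beta transcription; chromosome 7, 44997648 to 45002848, plus strand) had 530.3, 243.1 and 390.4 reads in the Dicer knockout, against 585.2, 327.7 and 130.9 in TFC. Dgcr8 knockout cells had 366.3, 147.6 and 118.3 reads, against 406.3, 264.9 and 132.3 in V6.5. The groups overlapped in both pairs, with log2 fold changes of 0.33 (SE 0.63) and -0.38 (SE 0.62) and limma adjusted p of 0.849 and 0.846. Irf3 shares 88 exonic bases with Bcl2l12 on the opposite strand.

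Irf7 (the factor that amplifies the interferon response; chromosome 7, 141262706 to 141266481, minus strand) was at or near 0 in 11 of the 12 libraries. It had 5.11, 0 and 0 reads in the Dicer knockout, against 0, 0 and 117.9 in TFC, and 0, 1.55 and 4.8 in the Dgcr8 knockout, against 5.08, 0 and 0 in V6.5. All of the TFC level stood in library C, the library with the immune marker sum of 7752 reads, and their part in it was not tested. Its log2 fold change in the Dicer pair was -1.43 (limma adjusted p = 0.834), and in the Dgcr8 pair Irf7 fell below the minimum and was not tested. Its introns were listed at 0 in all libraries. Irf7 shares 45 exonic bases with Phrf1 on the opposite strand.

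Irf2 (a factor that competes with Irf1 at interferon-type elements and mostly represses there; chromosome 8, 46739732 to 46847458, plus strand) had higher exonic reads in both knockouts without passing the test in either. It had 132.9, 90.9 and 130.1 reads in the Dicer knockout, against 6.42, 0 and 23.0 in TFC (log2 fold change 4.38, SE 1.51; limma adjusted p = 0.224, and 0.0929 to 0.594 over the alternatives). In the Dgcr8 knockout it had 110.1, 105.7 and 119.9 reads, against 20.3, 72.6 and 44.6 in V6.5 (1.44, SE 0.68; limma adjusted p = 0.353). Every knockout library stood above every wild-type library in each pair. Irf2 carries the AAGUGCU match and the interferon-type core printed above, and Eif2ak2, which carries both too, had groups that overlapped. The part of the match and of the core in these levels was not tested.

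The intronic reads of Irf2 went the other way in the Dgcr8 pair. They were 0, 11.5 and 6.95 in the Dgcr8 knockout, against 17.8, 44.9 and 37.4 in V6.5 (log2 fold change -2.79, SE 1.29; limma adjusted p = 0.337). The exonic minus the intronic change was 4.20 (SE 0.93; unadjusted p = 0.00317), with a limma adjusted p of 0.772 over 10339 genes. In the Dicer pair, introns held 26.4, 18.5 and 0 reads in the knockout against 5.08, 0 and 0 in TFC, under the minimum for a test. The intronic length of Irf2 in the tables is 105070 bases, and 3 antisense or unclassified genes lie in those introns on the opposite strand, so these few reads are uncertain.

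Of the effectors, Eif2ak2 (PKR, the kinase that stops translation when it binds double-stranded RNA; chromosome 17, 78852564 to 78882573, minus strand) was at 1040, 1833 and 1855 reads in the Dicer knockout, against 497.5, 1698 and 936.3 in TFC. This gave a log2 fold change of 0.72 (SE 0.45; limma adjusted p = 0.527, and 0.0871 with a term for library A). Dgcr8 knockout cells had 341.3, 1447 and 1527 reads, against 312.3, 992.5 and 1588 in V6.5 (0.21, SE 0.75; limma adjusted p = 0.945). As for Ddx58, library A was the lowest of every group, and the groups overlapped in both pairs. Intronic reads of Eif2ak2 were 83.7, 185.8 and 200.3 in the Dgcr8 knockout, against 29.6, 65.8 and 113.5 in V6.5 (1.26, SE 0.55; limma adjusted p = 0.307).

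Zbp1 (a sensor of left-handed, Z-form nucleic acid that can start Ripk3-dependent cell death; chromosome 2, 173206612 to 173218923, minus strand) was higher in both knockouts, in exons and in introns, and in every library. In the Dgcr8 knockout it rose to 247.0, 228.4 and 231.8 exonic reads, against 20.3, 25.4 and 36.7 in V6.5 (8.59-fold in the means; log2 fold change 3.10, SE 0.56; limma adjusted p = 0.0489). In the Dicer knockout it had 513.7, 597.5 and 297.5 reads, against 12.3, 110.1 and 103.6 in TFC (6.24-fold; log2 fold change 3.07, SE 0.93), and the limma adjusted p was 0.168. The changes in the 2 pairs differed by -0.02 (SE 1.11; limma adjusted p = 0.999). No annotated gene overlaps Zbp1.

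The introns of Zbp1 were also higher in every knockout library, without passing the test. They held 182.5, 117.9 and 152.4 reads in the Dicer knockout, against 9.65, 48.9 and 48.9 in TFC (log2 fold change 2.33, SE 0.97; limma adjusted p = 0.447). In the Dgcr8 knockout they held 141.7, 74.0 and 136.6 reads, against 0, 17 and 38.7 in V6.5 (3.67, SE 1.13; limma adjusted p = 0.14). The exonic minus the intronic change was 0.75 (SE 0.53) in the Dicer pair and -0.61 (SE 1.15) in the Dgcr8 pair, with limma adjusted p of 0.925 and 0.97. Ripk3, the kinase downstream of Zbp1, did not follow: it had 122.0, 181.7 and 188.6 exonic reads in the Dicer knockout, against 186.2, 90.0 and 207.1 in TFC (limma adjusted p = 0.972). In the Dgcr8 knockout Ripk3 had 99.3, 82.3 and 24 reads, all below the 175.2, 276.7 and 164.2 of V6.5 (log2 fold change -1.76, SE 0.68; limma adjusted p = 0.252).

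The call of Zbp1 in Dgcr8 exons was lost in 5 of the 6 fits with 1 library left out. These fits gave log2 fold changes of 2.91 to 3.32, with limma adjusted p of 0.0648 without knockout A, 0.255 without knockout B, 0.216 without knockout C, 0.224 without V6.5 B and 0.161 without V6.5 C, and it was called (0.0472) without V6.5 A. In the fits without knockout B, knockout C, V6.5 B or V6.5 C, 0 genes of the whole table were called. Without V6.5 B and C together the log2 fold change was 3.47 (adjusted p = 0.393), in a fit with 0 calls over all genes. With a term for library A, Zbp1 was called in both pairs (limma adjusted p = 0.0295 in Dicer and 0.00375 in Dgcr8), as were 12.2% and 17% of all genes. Library A was picked from these same values, so this fit is not an independent check. Zbp1 is also known in immune cells: the sum of the 10 immune markers was 820.4 to 1536 reads in the Dgcr8 knockout and 176.9 to 373.3 in V6.5. Laptm5 made up most of it in the knockout libraries and in V6.5 A. In V6.5 B it was 119.8 of 317.5 reads and in V6.5 C 44.6 of 176.9. Of 5 immune markers tested in that pair 4 were higher in the knockout and limma called 0, or 2 (Cd68 and Laptm5) with a term for library A. Cd68 averaged 231.9 reads in the Dgcr8 knockout against 63.4 in V6.5, and Cd3e 50.01 against 16.3. Like Laptm5, both were higher without overlap, as were 10.6% of all genes. Csf1r, the tested marker that was lower, had 0 reads in each knockout library against 5.08, 36.3 and 36.7 in V6.5, also without overlap (log2 fold change -4.35; limma adjusted p = 0.175). Of those not tested, Aif1 was at 0 in the Dgcr8 knockout, Adgre1 in V6.5, and Ptprc in both. The part of such cells in the level of Zbp1 was not tested.

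**Figure D2:**
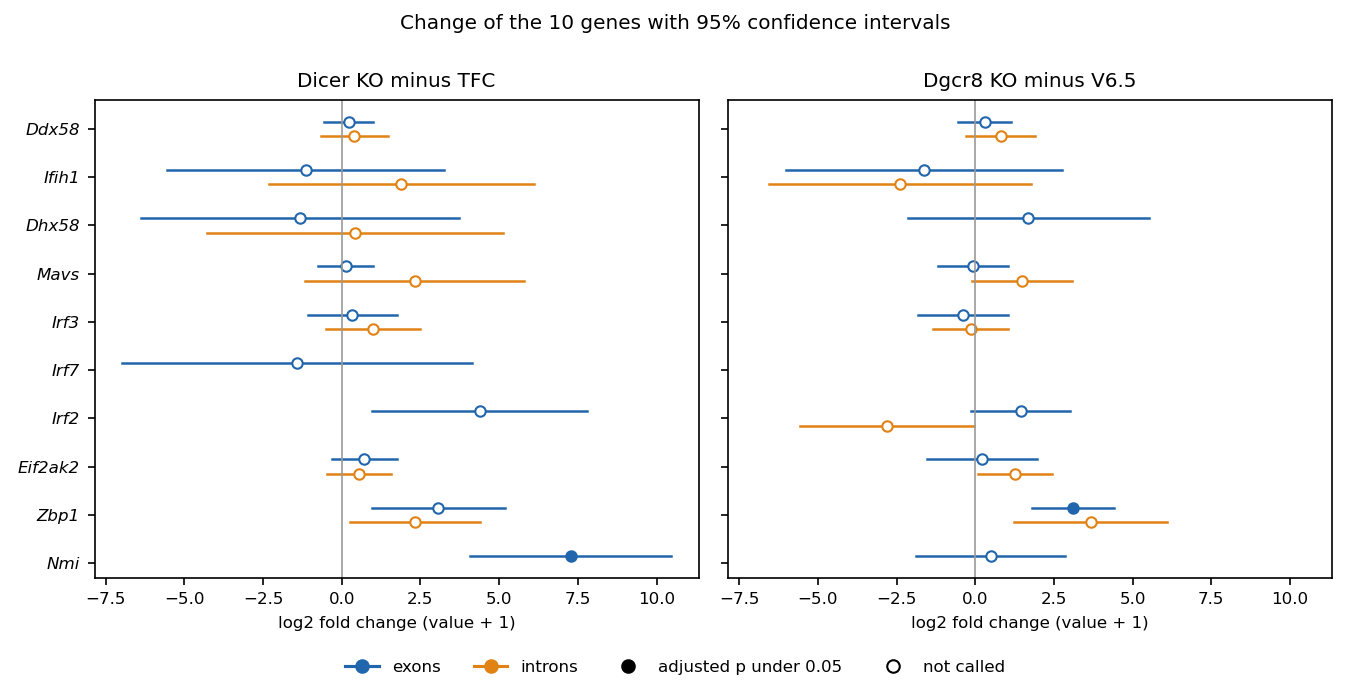
Log2 fold change of log2(value + 1), knockout minus wild type (x axis), of the members tested (y axis), with 95% confidence intervals, in exons (blue) and introns (orange) of the Dicer and the Dgcr8 pair; filled points have an adjusted p under 0.05. Only the exonic changes of Nmi in the Dicer pair (7.27) and of Zbp1 in the Dgcr8 pair (3.10) are filled, while the Dicer change of Zbp1 (3.07) is as large and open.

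Nmi (a protein that binds N-Myc and Stat factors and pairs with Ifi35; chromosome 2, 51948487 to 51973494, minus strand) had 105.4, 310.1 and 247.0 exonic reads in the Dicer knockout, against 0, 1.25 and 0 in TFC. That is 624 reads in the knockout and 1 read in TFC, a ratio of 656 after scaling, with a 95% interval of 117 to 25966 that covers counting error only. The interval takes reads as independent, which they are not (see the processing notes), so it is too narrow. The log2 fold change was 7.27 (SE 1.41; limma adjusted p = 0.0499). Introns of Nmi held 13.2, 32.4 and 14.1 reads in the Dicer knockout and 0 in each TFC library, where a count of 0 allows up to 3 reads per library; at a mean of 9.95 over the 6 libraries they fell just under the minimum for a test. No annotated gene overlaps Nmi.

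In the Dgcr8 pair Nmi was present in both lines. It had 50.9, 90.9 and 88.7 exonic reads in the Dgcr8 knockout, against 10.2, 92.5 and 148.2 in V6.5 (log2 fold change 0.49, SE 1.02; limma adjusted p = 0.89). The Dicer change minus the Dgcr8 change was 6.78 (SE 1.52; unadjusted p = 0.000756), with a limma adjusted p of 0.141 over 12311 genes, of which 0.171% were called. It was called without V6.5 A (7.91; adjusted p = 0.0204) and with a term for library A (adjusted p = 0.0172), where 2.74% of all genes were. Over the 9 members tested in both pairs, limma called 0 of these differences (1 at an unadjusted p under 0.05, against 7.03% of all genes). V6.5 A, the shallowest library, had the lowest level of its group. Without V6.5 B and C, the Dgcr8 change of Nmi was 2.76 (limma adjusted p = 0.644).

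The call of Nmi in Dicer exons was likewise lost in 5 of 6 such fits. Its log2 fold change was 6.95 to 7.73 with 1 library left out, with limma adjusted p of 0.129 without knockout A, 0.347 without knockout B, 0.387 without knockout C, 0.0966 without TFC B and 0.146 without TFC C, and it was called (0.0362) without TFC A. In 3 of these fits, without knockout B, knockout C or TFC C, 0 genes of the whole table were called. Over the 12 exonic libraries, centred within each pair, the patterns most like that of Nmi included those of Fkbp9 (r = 0.967) and Sparc (0.966). Sparc encodes a protein of the extracellular matrix. The 10 primitive endoderm markers summed to 3569 to 4546 reads in the Dicer knockout and 1421 to 3057 in TFC. Of 8 tested in the Dicer pair 4 were higher, with a median log2 fold change of 0.17. Col4a1 (1889 reads on average in the Dicer knockout against 200.3 in TFC) and Col4a2 (697.7 against 131.1; limma adjusted p = 0.0456) carried the higher sum, while Sox7 averaged 8.38 reads in the Dicer knockout against 146.4 in TFC, without overlap, and Gata6, Dab2 and Lama1 also had lower means. The 10 markers summed to 2079 to 3362 in the Dgcr8 knockout and 4283 to 6488 in V6.5. The part of such cells in the level of Nmi was not tested. Ifi35, the partner of Nmi, overlapped between groups in both pairs (115.6 and 97.3 reads on average in the Dicer knockout and TFC, and 85.8 and 134.5 in the Dgcr8 knockout and V6.5).

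**Figure D3:**
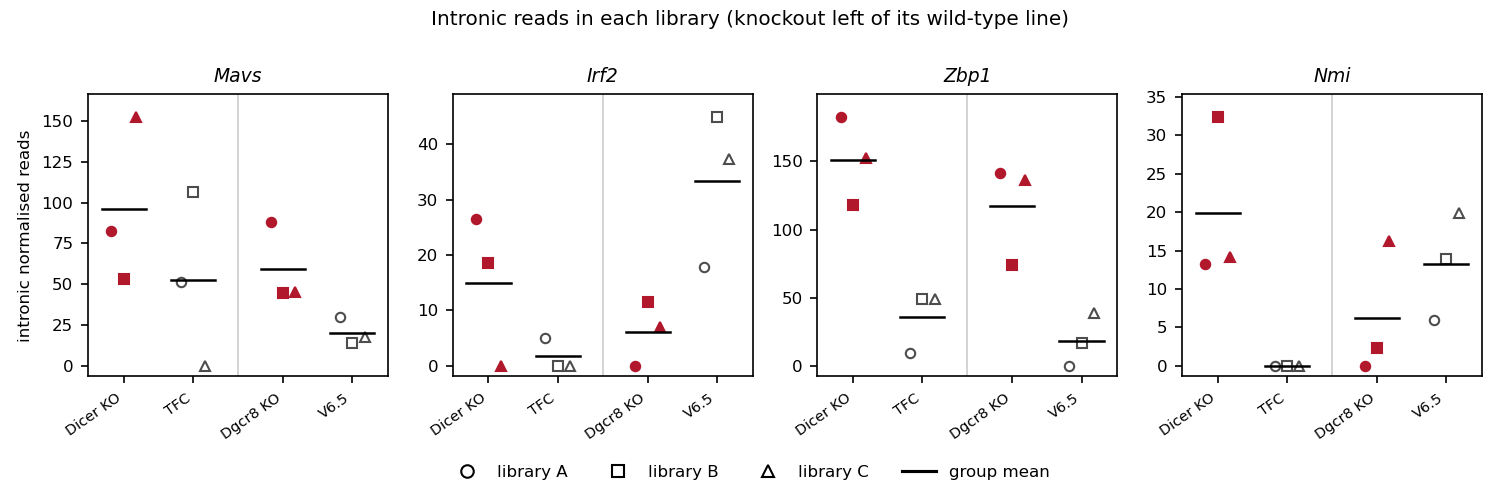
Intronic normalised reads (y axis, linear) of Mavs, Irf2, Zbp1 and Nmi in each library, knockout left of its wild-type line, with symbols for libraries A, B and C and black lines for the group means. Zbp1 introns lie above the wild type in both pairs, Irf2 introns lie below it in the Dgcr8 pair, and Nmi introns are at 0 in TFC.

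In introns, 7 members were tested in each pair and limma called 0, where 0.353% of 11625 genes were called in the Dicer pair and 1.52% of 10748 in the Dgcr8 pair. With p unadjusted, 1 and 3 members passed 0.05 (10.1% and 14.5% of all genes), and limma-voom called 0 in each. All 7 had a higher mean in the Dicer knockout on the log2 scale, 1 of them (Zbp1) with groups that did not overlap, as in 9.27% of all genes. In the Dgcr8 pair 4 of 7 were higher. Of all genes, 52.4% and 47.3% were higher. For exonic minus intronic change limma called 0 of 7 members in each pair, and 0 genes in all (0% of 10971 and of 10339). With p unadjusted, 0 members passed 0.05 in the Dicer pair and 3 in the Dgcr8 pair (Irf2, Mavs and Eif2ak2), against 3.56% and 5.71% of all genes. Intronic libraries were matched to exonic ones by how their deviations from the group mean followed each other, clearly for A (r of 0.325 to 0.454) and weakly for B and C (0.0801 to 0.307).

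Transcripts of the interferons themselves were all but absent. Of 9 interferon genes listed, 5 are in the tables (Ifnb1, Ifna4, Ifne, Ifnk and Ifng), and 4 of these were at 0 exonic reads in all 12 libraries. Ifng had 6.39 reads in Dicer knockout library A and 0 elsewhere. The receptor chains Ifnar1 and Ifnar2 were expressed in all groups: Ifnar1 averaged 1406 reads in the Dicer knockout against 1041 in TFC (limma adjusted p = 0.463), and 1154 in the Dgcr8 knockout against 1001 in V6.5 (0.803). Ifnar2 averaged 263.8 and 333.6 reads in the Dicer knockout and TFC, and 208.7 and 144.5 in the Dgcr8 knockout and V6.5, with limma adjusted p of 0.832 and 0.682.

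Of the other genes of interferon signalling, Jak1, the kinase of the interferon receptors, rose in the Dicer knockout and Irf9, the DNA-binding partner of Stat2, in the Dgcr8 knockout. Of 18 interferon, receptor and Jak-Stat genes tested in each pair, limma called 1 (Jak1) in Dicer exons and 0 in Dgcr8 exons. Of other Irf genes and cofactors, it called 0 of 10 in Dicer exons and 1 of 8 (Irf9) in Dgcr8 exons. Over all genes 1.25% and 1.34% were called. With a term for library A, Jak1 was among the genes of its list called in Dgcr8 exons (4 up and 1 down), beside 17% of all genes. Jak1 had 2610, 3365 and 2806 exonic reads in the Dicer knockout, against 1109, 1216 and 934.9 in TFC (log2 fold change 1.43, SE 0.24; limma adjusted p = 0.0344). Irf9 had 713.5, 679.0 and 833.0 reads in the Dgcr8 knockout, against 213.3, 181.4 and 248.6 in V6.5 (1.79, SE 0.33; limma adjusted p = 0.04997). Irf9 was also higher in every Dicer knockout library than in any TFC library (868.6 and 495.7 reads on average), with a limma adjusted p of 0.271. Stat2 overlapped in both pairs (456.1 and 722.0 reads in the Dicer knockout and TFC, 351.7 and 339.7 in the Dgcr8 knockout and V6.5). Irf1, an early activator, averaged 1837 reads in the Dicer knockout against 1093 in TFC, without overlap (limma adjusted p = 0.333, and 0.0366 with a term for library A). In the Dgcr8 pair Irf1 averaged 1186 reads in the knockout against 1669 in V6.5, where libraries B and C, those with the highest fibroblast sums, held 2089 and 2235 reads and A held 683.0.

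Other sensors of nucleic acid gave 0 calls in exons by limma: 20 of 25 were tested in the Dicer pair and 19 in the Dgcr8 pair. With p unadjusted, 4 and 5 passed 0.05 (14.5% and 16.3% of all genes), and limma-voom called 0 in each. A term for library A gave 2 calls up in the Dicer pair (Aim2 and Zc3hav1) and 5 up in the Dgcr8 pair (Aim2, Mb21d1, Oas2, Zc3hav1 and Zcchc3), where 12.2% and 17% of all genes were called. The median log2 fold change of these sensors was -0.12 and -0.03, against -0.01 and -0.08 over all genes. Zc3hav1 (ZAP, which binds CpG-rich viral RNA) was higher in all knockout libraries: 1543 reads on average in the Dicer knockout against 492.4 in TFC (log2 fold change 1.73, SE 0.39; limma adjusted p = 0.083), and 982.1 in the Dgcr8 knockout against 563.3 in V6.5 (0.81, SE 0.29; 0.213). Its limma adjusted p with a term for library A was 0.00171 and 0.0335. Mb21d1 (cGAS, the sensor of cytosolic DNA) had 225.6, 404.4 and 507.3 reads in the Dicer knockout, against 26.7, 0 and 79.1 in TFC (limma adjusted p = 0.205). In the Dgcr8 knockout it had 126.0, 372.1 and 297.4 reads, against 25.4, 65.3 and 121.1 in V6.5 (limma adjusted p = 0.226, and 0.0161 with a term for library A). Tmem173 (STING, its partner) averaged 125.3 reads in the Dicer knockout against 26.1 in TFC (0.326), and 37.0 in the Dgcr8 knockout against 16 in V6.5 (0.466), limma adjusted p in brackets. Tlr3, the endosomal receptor of double-stranded RNA, averaged 17.2 reads in the Dicer knockout against 46.6 in TFC, and 15.9 in the Dgcr8 knockout against 167.5 in V6.5, where B and C held 303.0 and 194.5 reads and A held 5.08. Ddx60, an interferon-stimulated helicase, averaged 32.6 and 32.4 reads in the Dicer knockout and TFC, and 16.3 and 47.5 in the Dgcr8 knockout and V6.5. Adar, which edits double-stranded RNA and keeps Ifih1 quiet, averaged 1403 and 1536 reads in the Dicer knockout and TFC, and 899.9 and 1183 in the Dgcr8 knockout and V6.5 (limma adjusted p = 0.85 and 0.555); every Dgcr8 knockout library was below every V6.5 library.

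Aim2, a sensor of cytosolic DNA outside the genes chosen for naming and picked after its values were seen, was the only member of these lists besides Xaf1 that limma called in introns. Aim2 introns held 339.8, 792.4 and 795.5 reads in the Dgcr8 knockout, against 165.8, 84.3 and 109.8 in V6.5 (log2 fold change 2.36, SE 0.40; limma adjusted p = 0.00833). Xaf1, an interferon-stimulated gene with a role in apoptosis, held 216.8, 326.3 and 334.6 intronic reads in the Dgcr8 knockout, against 5.92, 54.2 and 61.1 in V6.5 (3.33, SE 0.70; limma adjusted p = 0.0295). With 1 library left out, Aim2 was called in 3 of 6 fits and Xaf1 in 1 of 6.

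Adaptors, kinases and ligases after Mavs gave 0 calls by limma, of 29 tested in Dicer exons and 30 in Dgcr8 exons (4 and 5 at an unadjusted p under 0.05, against 14.5% and 16.3% of all genes, and 0 by limma-voom in each). A term for library A called 3 up in the Dicer pair (Rela, Ripk1 and Trim25) and 3 up in the Dgcr8 pair (Ripk1, Rnf125 and Trim25), beside 12.2% and 17% of all genes. Their median log2 fold change was 0.09 and -0.10, against -0.01 and -0.08 over all genes. Tbk1, the kinase of Irf3, averaged 956.4 reads in the Dicer knockout against 970.5 in TFC, and 687.4 in the Dgcr8 knockout against 731.1 in V6.5, with limma adjusted p of 0.993 and 0.9998. Ikbke, its relative, was low (30.1 and 46.2 reads in the Dicer knockout and TFC, 13.4 and 32.8 in the Dgcr8 knockout and V6.5). Trim25, a ubiquitin ligase of the Ddx58 pathway, was higher in every knockout library of both pairs: 6439 reads in the Dicer knockout against 4380.4 in TFC (log2 fold change 0.58, SE 0.26; limma adjusted p = 0.353), and 5738 in the Dgcr8 knockout against 3765 in V6.5 (0.61, SE 0.25; 0.277). Its limma adjusted p with a term for library A was 0.0264 and 0.0449. The double-stranded RNA kinase branch gave 0 calls of 14 tested in each exon table (2 and 0 at an unadjusted p under 0.05, and 0 by limma-voom in each). With a term for library A, Dnajc3 was called up and Atf4 down in the Dicer pair, and 0 of 14 were called in the Dgcr8 pair. Prkra, the activator of PKR, averaged 393.3 and 297.0 reads in the Dicer knockout and TFC, and 278.2 and 304.0 in the Dgcr8 knockout and V6.5. Tarbp2, an inhibitor of PKR that is also a partner of Dicer, averaged 607.4 and 621.0 reads in the Dicer knockout and TFC, and 423.2 and 595.6 in the Dgcr8 knockout and V6.5. Both overlapped in each pair.

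**Figure D4:**
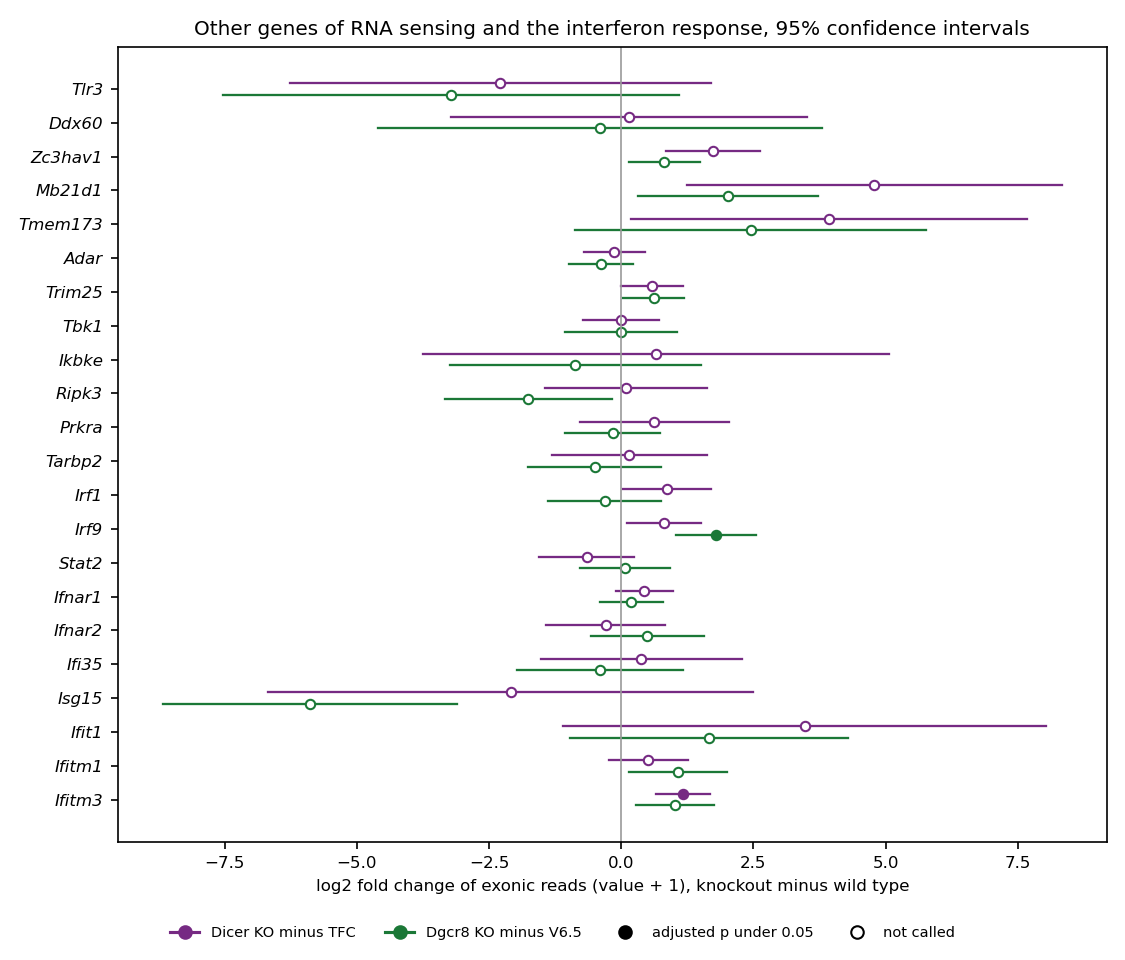
Log2 fold change of exonic reads, knockout minus wild type (x axis), with 95% confidence intervals, of other genes of RNA sensing and the interferon response (y axis) in the Dicer pair (purple) and the Dgcr8 pair (green); filled points have an adjusted p under 0.05. Ifitm3 in the Dicer pair (1.17) and Irf9 in the Dgcr8 pair (1.79) are filled, and Isg15 in the Dgcr8 pair lies lowest, with 0 reads in all knockout libraries.

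Of 58 interferon-stimulated genes listed, 56 are in the tables. In the Dicer pair 35 of 50 tested were higher, with 2 called up and 0 down (1.25% of all genes in either direction) and a median log2 fold change of 0.88, against -0.01 and 49.4% higher over all genes. In the Dgcr8 pair 20 of 44 were higher, with 1 called up and 0 down (1.34% of all genes) and a median of -0.29, against -0.08 and 45.7% higher over all genes. With a term for library A, 9 were called up and 0 down in the Dicer pair, and 5 up and 5 down in the Dgcr8 pair, beside 12.2% and 17% of all genes. Whether the list as a whole differed between the pairs was not tested. Limma-voom called 0 in each, and with p unadjusted 10 and 8 passed 0.05, against 14.5% and 16.3% of all genes.

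The called genes of that list were Ifitm3 and Tapbp in the Dicer pair and Znfx1 in the Dgcr8 pair. Ifitm3, a membrane protein that blocks viral entry, had 4486, 4271 and 4289 reads in the Dicer knockout, against 2108, 1578 and 2160.3 in TFC (log2 fold change 1.17, SE 0.23; limma adjusted p = 0.0494). It was also above V6.5 in every Dgcr8 knockout library (4091 and 1968 reads on average; limma adjusted p = 0.163, and 0.00661 with a term for library A). Tapbp, which loads peptides on class I molecules, had 2176, 1847 and 1830 reads in the Dicer knockout, against 582.0, 275.1 and 445.9 in TFC (2.23, SE 0.34; limma adjusted p = 0.0282). Znfx1, a helicase of antiviral defence, had 2458, 1635 and 1624 reads in the Dgcr8 knockout, against 614.5, 535.3 and 341.1 in V6.5 (1.95, SE 0.34; limma adjusted p = 0.0445). With a term for library A, Znfx1 was also called higher in the Dicer pair, where 12.2% of all genes were called. With 1 library left out, Ifitm3, Jak1 and Tapbp were each called in 1 of 6 fits, and Irf9 and Znfx1 in 2 of 6. In the other fits the adjusted p reached 0.34, 0.277, 0.235, 0.249 and 0.224. Dicer exons had 0 calls over all genes without knockout B, knockout C or TFC C. Dgcr8 exons had 0 calls over all genes without knockout B, knockout C, V6.5 B or V6.5 C.

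Isg15, a ubiquitin-like protein that interferon induces, had 33.2, 0 and 0 reads in the Dicer knockout, against 4.28, 20.01 and 23.0 in TFC. It had 0 reads in all 3 Dgcr8 knockout libraries, against 20.3, 110.7 and 86.1 in V6.5 (limma adjusted p = 0.064, and 0.0114 with a term for library A), again highest in V6.5 B and C. Ifit1 had 51.1, 95.4 and 18.6 reads in the Dicer knockout, against 0, 0 and 71.9 in TFC, and 41.7, 74.6 and 212.7 in the Dgcr8 knockout, against 5.08, 41.7 and 82.9 in V6.5, with groups that overlap in both pairs. Ifitm1 averaged 3736 and 2639 reads in the Dicer knockout and TFC, and 2843 and 1365 in the Dgcr8 knockout and V6.5 (limma adjusted p = 0.536 and 0.236, and 0.0555 and 0.00563 with a term for library A).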

How the data were processed

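Polyadenylated RNA of 12 libraries was sequenced by the submitters, who name TopHat2 2.0.12, DESeq and mm10 in their processing notes. The 4 deposited tables hold, per gene, a signal in normalised reads over exons or introns, given by the authors as the mean of the 3 libraries of a group. The sources used here do not give the steps between alignment and these means. Each mean was solved as a sum of whole-number reads times 3 steps, which gave the libraries' values; 99.4% to 100% of genes per column had 1 solution, and genes with several were left out. Recovered libraries were lettered by correlation and size factor and have no link to replicate numbers. Of recovered reads per gene, 60.1% to 78.1% were even-numbered over exons and 60.9% to 80.4% over introns, so reads are not independent and precision is lower than depth implies.

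Each table was tested alone with limma 3.58.1 in R 4.3.3 on log2(value + 1), a scale that understates changes of low genes, for genes whose 6 libraries averaged 10 or more, with a variance trend, Benjamini-Hochberg adjustment and a threshold of 0.05; the fits were tested on simulated data. An exact permutation of 3 against 3 libraries cannot go below p = 0.1 and was not used. Intervals and limits cover counting error only where so stated. Alternatives were other pseudocounts, filters and scalings, limma-voom on recovered reads, a term separating library A from B and C, and libraries left out. Named were all 10 members, pathway genes called in exons (at most 12 per table by size), 23 genes listed in advance, and the 3 genes most like Mavs and Nmi; results of some of these are not reported here. The members, lists and tests were chosen with earlier results of these data known.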

Additional observations from a re-analysis of the deposited data

How the results depend on the processing

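No paired analysis was possible because no label number could be tied to a recovered library. Of 1169 alternative values for single genes, 1035 kept their direction and their side of the threshold, 57 lost the call, 18 gained one and 59 changed direction; the cause was not tested. The count of members called in Dicer exons (1) was 0 with limma-voom, without a filter on low values, with a pseudocount of 0.1 and at a mean of at least 50, and 2 with a term for library A; it ran from 0 to 1 with 1 library left out. The count in Dgcr8 exons (1) was 0 with limma-voom, without the filter, with a pseudocount of 0.1 and without V6.5 B and C, and 0 to 1 with 1 library left out. The count in Dgcr8 introns (0) was 1 with the library term and with a pseudocount of 10. For the Dicer change minus the Dgcr8 change (0) it was 1 with the library term and 0 to 1 with 1 library left out.

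Over all genes, calls in Dicer exons numbered 164, against 21 with limma-voom, 35 without a variance trend, 1605 with the library term and 0 to 483 with 1 library left out. In Dgcr8 exons they numbered 171, against 105 with a pseudocount of 0.1, 49 with limma-voom, 2162 with the library term, 0 to 464 with 1 library left out and 0 without V6.5 B and C, a setting chosen after seeing the data. Both the library term and the leave-one-out fits thus move the counts by far more than 1.5 times.

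Without V6.5 B and C the Dgcr8 log2 fold change turned to 2.95 for Ifih1, 3.68 for Ddx60, 0.53 for Ifi35, 0.80 for Irf1, -0.31 for Stat2, 0.91 for Tbk1 and 0.33 for Tlr3 in exons, and to 1.06 for Ifih1 in introns. Limma-voom turned Mavs to 0.0802 in Dgcr8 exons, and Ripk3 to -0.11 and Tbk1 to 0.017 in Dicer exons. A pseudocount of 10 turned Ikbke to -0.079 in Dicer exons, and for Zbp1 it turned the exonic minus intronic Dgcr8 change to 0.33 and the Dicer minus Dgcr8 change to 0.0402. A pseudocount of 0.1 turned Ddx60 to 0.57 and Tbk1 to 2.7e-05 in Dgcr8 exons, and size factors by the trimmed mean of M-values turned Tbk1 to 0.013 in Dicer and 0.034 in Dgcr8 exons. Values that changed sign with 1 library left out had these ranges. Dicer exons gave Mavs -0.12 to 0.33, Ddx58 -0.073 to 0.47, Ifih1 -2.48 to 0.82, Irf3 -0.25 to 0.83, Irf7 -2.58 to 0.87, Ddx60 -0.61 to 0.999, Ifi35 -0.088 to 0.77, Ikbke -1.3 to 2.1, Prkra -0.034 to 0.96, Ripk3 -0.28 to 0.31, Tarbp2 -0.58 to 0.54 and Tbk1 -0.23 to 0.17. Dgcr8 exons gave Mavs -0.53 to 0.27, Eif2ak2 -0.46 to 0.91, Nmi -0.65 to 1.22, Ddx60 -2.45 to 0.803, Ifi35 -0.86 to 0.17, Prkra -0.37 to 0.045, Stat2 -0.084 to 0.26 and Tbk1 -0.46 to 0.25. Dicer introns gave Dhx58 -1.05 to 2.08. Dgcr8 introns gave Irf3 -0.497 to 0.084. The exonic minus intronic Dgcr8 change gave Zbp1 -1.45 to 0.75. The Dicer minus Dgcr8 change gave Mavs -0.15 to 0.66 and Zbp1 -1.03 to 0.501. Most of these genes had groups that overlapped, and low read numbers limit Irf7, Ifih1, Dhx58 and the introns of Nmi and Irf2.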

Other observations

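Xaf1, whose intronic reads were called in the Dgcr8 pair, had 712.9, 1114 and 886.2 intronic reads in the Dicer knockout, against 88.4, 0 and 89.4 in TFC (log2 fold change 5.47, SE 1.2; limma adjusted p = 0.0676). Aim2 exons held 2046, 3076 and 2955 reads in the Dicer knockout, against 978.4, 1780 and 1637 in TFC, and 844.9, 2288 and 2396 reads in the Dgcr8 knockout, against 401.2, 440.0 and 667.8 in V6.5. Every knockout library was above every wild-type library in these 3 comparisons, and the limma adjusted p for Aim2 exons was 0.216 and 0.111. Both genes were picked after their values were seen.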
